A study of Mus musculus with 12 samples.

Results

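The 40 genes described here encode proteins that transcribe ribosomal RNA or assemble it into ribosomal subunits. They were taken by name, by matching a list of 40 gene symbols to the identifiers of the deposited raw count table. All 40 matched 1 identifier each among 53700, and all 40 had enough counts to be tested. The list groups them by role: 5 subunits of RNA polymerase I, 4 factors that work with it, 4 abundant nucleolar proteins, 4 proteins of box C/D and 4 of box H/ACA small nucleolar ribonucleoproteins, 10 factors of the small subunit and 9 of the large subunit.

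RNA polymerase I (Pol I) transcribes the repeated ribosomal DNA in the nucleolus into one long precursor. Small nucleolar ribonucleoproteins modify this precursor, and assembly factors cut and fold it together with ribosomal proteins into a small and a large subunit. Production of ribosomes is known to be adjusted to growth and division, and the transcription factor MYC is known to bind many genes of this kind, often at the E-box CACGTG.

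The libraries came from intrahepatic cholangiocyte organoids, which are hollow structures of bile duct epithelium grown in domes of Matrigel, a basement membrane gel. The 3 wild-type mice (WT; mice 1221, 1223 and 1225) and the 3 mice homozygous for the Ndr allele of Jag1 (Jag1 Ndr/Ndr, written Ndr; mice 1219, 1220 and 1224) each gave a hilar and a peripheral culture of its liver. Jag1 is a Notch ligand, the human gene is mutated in most cases of Alagille syndrome, and the Ndr allele is a missense change, so its level does not check the genotype. RNA was taken from untreated cultures at passage 5, so every value describes cells several passages away from the animal. The 4 groups of genotype and region hold 3 libraries each, and the labels name no age, sex or strain for the mice. Below, values of a WT group are listed in the order of mice 1221, 1223 and 1225, and those of an Ndr group in the order of mice 1219, 1220 and 1224.

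Libraries held 6708822 to 16030880 counts. Expression is given as CPM (counts scaled to a common library size) on totals scaled by the trimmed mean of M-values, which allows 1 gene to be compared between libraries but not 1 gene with another, since it is not divided by length. All 11 cholangiocyte markers were tested, with a summed level of 11545 to 21245 CPM, while summed endothelial and fibroblast or stellate markers stayed at or below 0.424 and 1.79 CPM. The 10 hepatocyte markers summed to 159 to 328 CPM, the 7 immune markers to 9.9 to 40.1 CPM and the 4 mesothelial markers to 37.5 to 658 CPM. The mesothelial sum was 106 to 269 CPM in Ndr hilar and 360 to 602 CPM in Ndr peripheral cultures, which did not overlap, and the other pairs of groups overlapped for each of these marker sums. The levels of 3 further lists were read in every library: 30 cell cycle genes, 77 cytosolic ribosomal protein genes and 94 other ribosome biogenesis genes. The summed level of the ribosomal protein genes was 27606 CPM in WT hilum 1223, 29137 in Ndr hilum 1219 and 23845 in Ndr periphery 1220, against 11026 to 18182 in the other 9 libraries. Derivation dates in June also differed: day 15 for mice 1221 and 1223, day 17 for 1219, day 18 for 1220 and day 21 for 1224 and 1225, so only day 21 holds both genotypes.

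Promoter sequence from RefSeq (GRCm38.p6) was matched by symbol for 35 of the 40 genes. The motif CACGTG, which reads the same on both strands, was found in the promoter window of 6 of these 35 genes (17.1%), namely Rrn3, Nop2, Pes1, Wdr43, Utp20 and Mybbp1a. Among all 27025 genes with a window of the same length the share was 8.09%. It was 22.1% of 77 genes of the other ribosome biogenesis list and 10.7% of 56 ribosomal protein genes. A match is a run of letters and not evidence of binding. The sequences printed, 5′ to 3′ and all upstream of the annotated start, are those of Polr1b, shown up to the last base before the start as the gene with the largest genotype difference in what follows and no match in its window, and Rrn3 and Nop2, with the motif in capitals and its surroundings. The match in Nop2 lies 60 bases and the one shown for Rrn3 48 bases before the start, and Rrn3 has 2 matches in all.
Polr1b, chr2:129100876-129100995, plus strand: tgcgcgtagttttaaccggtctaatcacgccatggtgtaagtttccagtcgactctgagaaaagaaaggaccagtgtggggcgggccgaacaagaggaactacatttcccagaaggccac
Rrn3, chr16:13780621-13780686, plus strand: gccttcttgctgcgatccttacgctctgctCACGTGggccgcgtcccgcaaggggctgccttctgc
Nop2, chr6:125131793-125131858, plus strand: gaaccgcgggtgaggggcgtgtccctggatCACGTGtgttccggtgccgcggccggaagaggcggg

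The level of the whole list was summarised as the mean, over the 40 genes, of log2 CPM centred on each gene's own mean over the 12 libraries. In WT hilar cultures this mean level was 0.17 ± 0.25 (SD, n = 3), in Ndr hilar cultures -0.10 ± 0.09, in WT peripheral cultures -0.03 ± 0.10 and in Ndr peripheral cultures -0.04 ± 0.21. The hilar groups did not overlap, but only just: the lowest WT hilar culture, of mouse 1223, was at -0.034 and the highest Ndr hilar culture, of mouse 1219, at -0.036. Every other pair of groups overlapped. The hilar groups overlapped as well when the median over the 40 genes was taken (-0.04 for mouse 1223 and 0.04 for mouse 1219) or after correction for transcript length (0.0077 and 0.02). WT hilum 1225 was the highest library at 0.45 and Ndr periphery 1224 the lowest at -0.26. WT hilum 1225 also had the highest mean centred level of the cell cycle genes, 1.62, against -0.38 and -0.95 in the WT hilar cultures of mice 1221 and 1223. Ndr periphery 1220, second highest for the 40 genes at 0.15, was second highest for the cell cycle genes at 1.22. In bulk RNA, fewer cells of a type and less RNA per cell cannot be told apart.

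**Figure D1:**
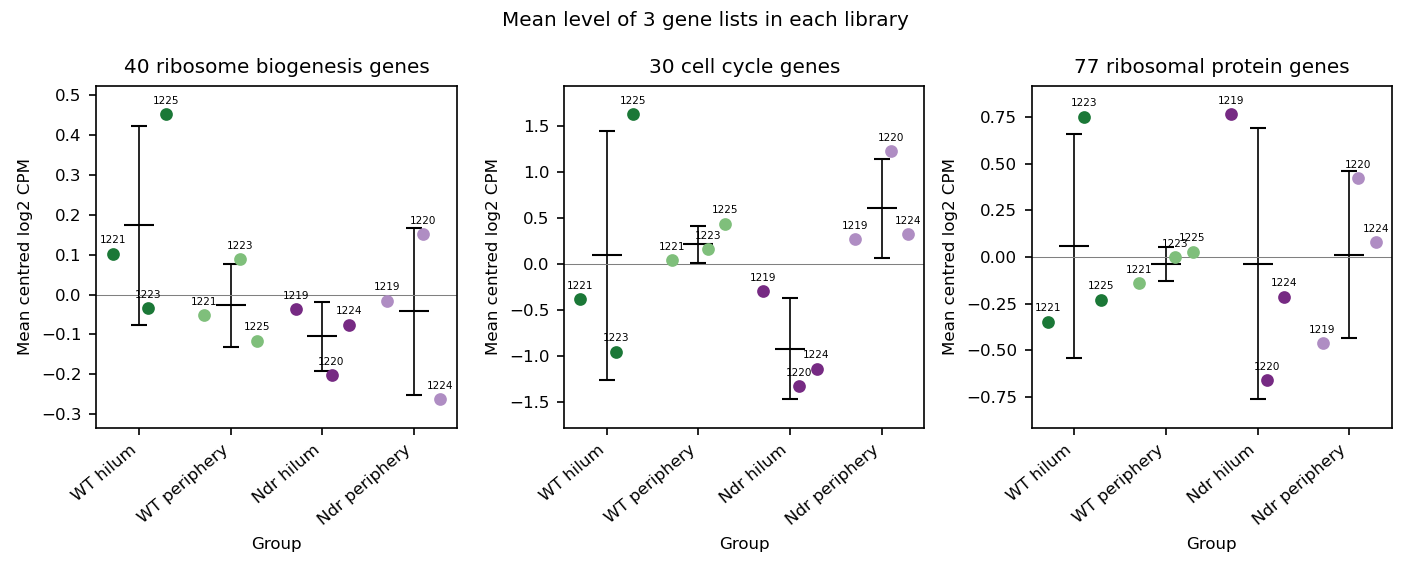
Each point is 1 library, labelled with its mouse; the y axis is the mean over a gene list of log2 CPM centred on each gene's mean over 12 libraries, and black bars are the group mean ± SD (n = 3). WT hilum 1225 is the highest library in the panels of the 40 ribosome biogenesis genes (0.45) and of the cell cycle genes (1.62), but not in that of the ribosomal protein genes.

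Over the 12 libraries, the mean level of the 40 genes followed that of the other ribosome biogenesis genes (Pearson r = 0.91, Spearman rho = 0.90). With the cell cycle genes r was 0.63 and rho 0.38, with the ribosomal protein genes r was 0.01, with 20 p53 target genes 0.05 and with log10 of the total count -0.02. The lists were read in the same 12 libraries and share their depth and scaling, so these correlations are descriptions. The assembly factors and the ribosomal proteins they build in thus ranked the libraries differently.

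The 40 genes were not one block. Of their 780 pairs, 598 had a positive correlation over the 12 libraries, with a median r of 0.35. Nop16 and Nhp2, a large subunit factor and a box H/ACA protein, were most alike (r = 0.99), while Polr1a and Polr1c, both Pol I subunits, were least alike (r = -0.81). Utp20, a large scaffold protein of the small subunit precursor, had the largest spread, with an SD of 0.62 for centred log2 CPM. Rrn3, the initiation factor that lets Pol I engage the ribosomal DNA promoter, had the smallest, with an SD of 0.10.

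**Figure D2:**
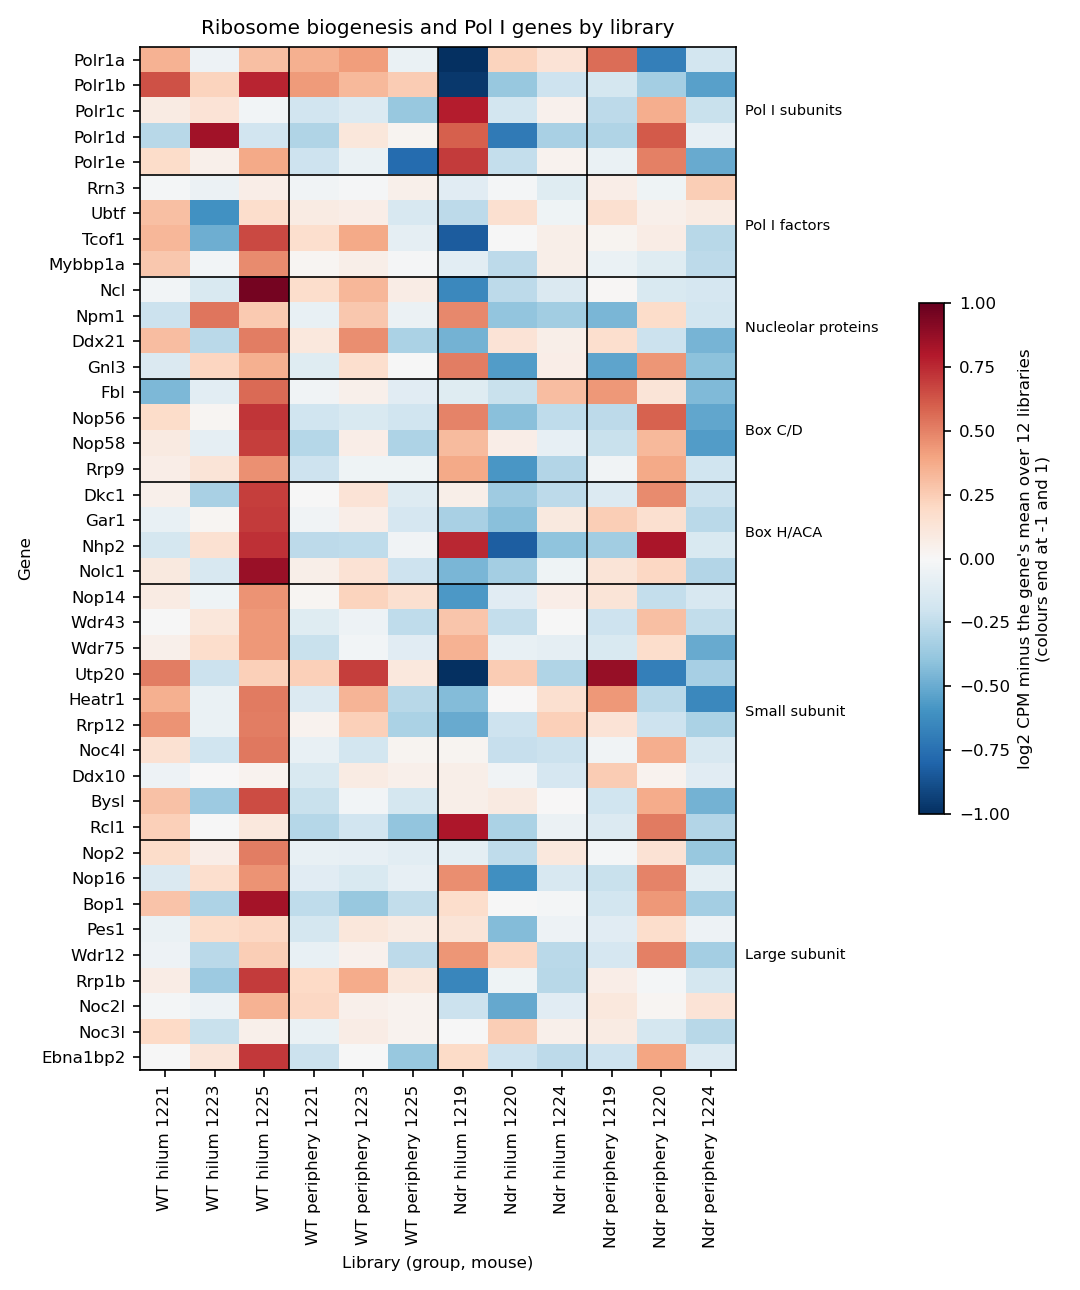
Rows are the 40 genes grouped by role, columns the 12 libraries grouped by genotype and region, and colour is log2 CPM minus the gene's mean over the 12 libraries, with colours ending at -1 and 1. WT hilum 1225 is red for most genes, Polr1b changes colour between the WT and the Ndr columns, and Ndr hilum 1219 and Ndr periphery 1220 hold both strong red and strong blue cells.

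Part of this variation followed transcript length. In WT hilum 1223, Ndr hilum 1219 and Ndr periphery 1220, the libraries with the highest summed ribosomal protein level, the longer genes of the list had the lower centred levels, with a Spearman rho of -0.57, -0.58 and -0.55 over the 40 genes. In Ndr hilum 1220 and WT hilum 1221 the order was the opposite, with rho of 0.69 and 0.56. It was also positive in WT periphery 1223 (0.55), WT periphery 1221 (0.46) and Ndr periphery 1219 (0.40), and from -0.30 to 0.14 in the rest. Each gene is centred over the same 12 libraries, so falling slopes in some partly fix rising slopes in others. All genes tested showed the same sign in the first 5 libraries named, with rho of -0.37, -0.50, -0.43, 0.38 and 0.38 over 14986 genes with a length. The cause of these patterns was not tested. Length here is that of the longest annotated transcript, which need not be the one expressed. Correction for it lowered the SD of some genes, from 0.54 to 0.28 for Polr1a and from 0.62 to 0.35 for Utp20. It raised that of others, from 0.34 to 0.60 for Nop58 and from 0.29 to 0.60 for Wdr12.

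**Figure D3:**
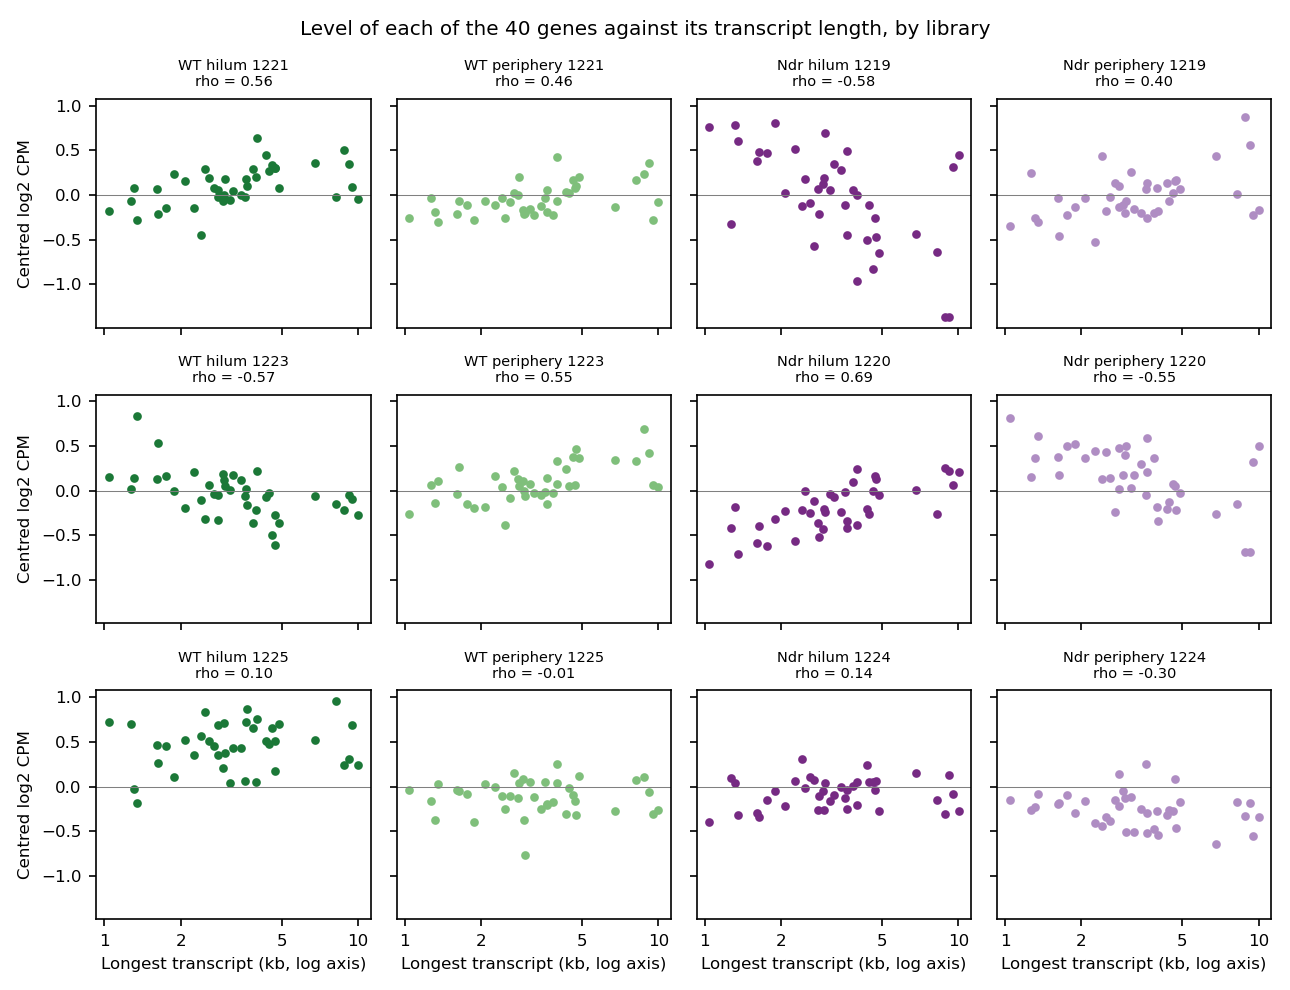
Each panel is 1 library and each point 1 of the 40 genes; the x axis is the length of its longest annotated transcript in kilobases on a log scale and the y axis its centred log2 CPM. Points fall from left to right in WT hilum 1223, Ndr hilum 1219 and Ndr periphery 1220 (rho from -0.55 to -0.58) and climb in Ndr hilum 1220 (rho 0.69).

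The comparison of genotypes asks whether these genes differ between Ndr and WT organoids. Taken over both regions, it used 1 total per mouse, the sum of its hilar and peripheral libraries, so that each animal counted once. In mice 1219 and 1220 the 2 libraries deviated from their group means in opposite ways over the 40 genes (r = -0.88 and -0.79). Summing evens out such deviations, so totals can lie closer together than the libraries they come from. Of the 40 genes, 33 had a lower fitted level in Ndr mice, beside 50.7% of all genes, with a median log2 difference of -0.11, against -0.0045 for all genes tested. That median was -0.04 without mouse 1224 and -0.06 without mouse 1225, the mice with the lowest and the highest mean centred level of the list (-0.19 and 0.18), and -0.17 without mouse 1220 and -0.17 without mouse 1221. It was -0.23 without the 3 libraries with high ribosomal protein levels. In that fit mice 1219 and 1223 kept only the peripheral and mouse 1220 only the hilar library. With derivation date in the fit the median was -0.37. Only day 21 holds both genotypes, so that value rests on mouse 1224 against mouse 1225, the lowest and the highest mouse for this list. In 14 of the 40 all 3 Ndr mice were below all 3 WT mice, and in none were they all above; among all 15401 genes tested 5.78% were lower in this sense and 5.49% higher. No gene of the list and no gene at all passed an adjusted p of 0.05 in edgeR's quasi-likelihood test with Benjamini-Hochberg adjustment (0.00% called). At an unadjusted p under 0.05, edgeR had 10 of the 40 genes lower and none higher (2.93% and 2.49% of all genes tested), and 834 genes passed in all (5.42%). The number among the 40 was 7 without the 3 libraries with high ribosomal protein levels, 4 without mouse 1219, 4 without mouse 1220, 5 without mouse 1225, 6 without mouse 1224, 6 without mouse 1221 and 9 without mouse 1223. The share of all genes passing in each of these reduced fits is not given here, so these counts do not show a trait of the list. DESeq2 called 124 genes, Polr1b as the only one of the 40, and limma-voom called 0. Whole counts recovered from the authors' normalized table differ from the raw counts by a step that no source used here records; with them the median was -0.37 and edgeR called 28 of the 40, beside 6753 genes in all. With 3 mice against 3, an exact permutation test of 1 gene cannot give a two-sided p under 0.1.

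Polr1b encodes the second-largest subunit of Pol I, which forms the catalytic core together with the product of Polr1a. In WT organoids it was at 48.2, 36.3 and 52.6 CPM in hilar and 41.7, 38.99 and 37.1 CPM in peripheral cultures. Ndr organoids had 15.8, 23.8 and 26.8 CPM in hilar and 27.4, 24.4 and 21.2 CPM in peripheral cultures. All 6 Ndr libraries were below all 6 WT libraries, which held for 19 of 15014 genes (0.127%) and for no other gene of the list. The mouse totals were 42.9 ± 4.4 CPM for WT and 22.8 ± 1.54 CPM for Ndr (SD, n = 3), and the largest Ndr total, 23.7 CPM, was below the smallest WT total, 37.8 CPM.

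The fitted log2 difference of Polr1b was -0.91 ± 0.139 (SE), with an unadjusted p of 0.000287 and an adjusted p of 0.277 in edgeR, and it ranked 16 of 15401 genes by p. DESeq2 gave an adjusted p of 0.000212 and limma-voom one of 0.25 for the same totals. Leaving out any 1 mouse gave -0.859 to -0.996, correcting each library for transcript length gave -0.87, and leaving out the 3 libraries with high ribosomal protein levels gave -0.79. On the only derivation day that holds both genotypes, mouse 1224 (Ndr) had 26.8 and 21.2 CPM in hilum and periphery, and mouse 1225 (WT) 52.6 and 37.1 CPM. The lower level in Ndr organoids was present in both regions. Within that day it rests on 1 mouse of each genotype, and WT hilum 1225 was the highest library of all for Polr1b. The cause of the lower Polr1b level was not tested, and the labels name no strain for the mice.

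**Figure D4:**
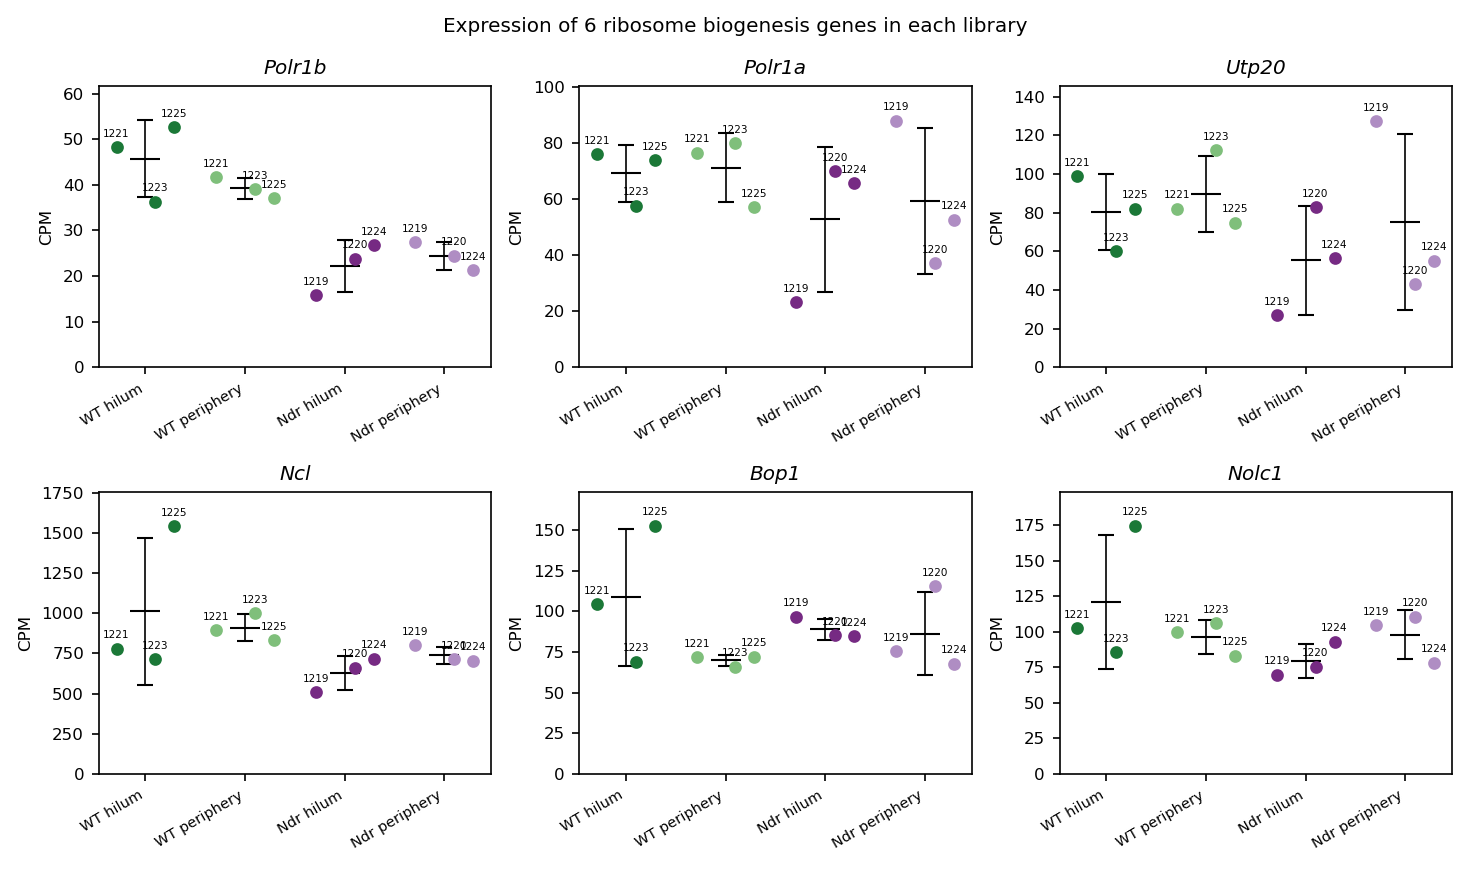
CPM of Polr1b, Polr1a, Utp20, Ncl, Bop1 and Nolc1 in each library; points are libraries labelled with their mouse and black bars the group mean ± SD (n = 3). For Polr1b all 6 Ndr libraries lie between 15.8 and 27.4 CPM and all 6 WT libraries between 36.3 and 52.6 CPM, while WT and Ndr libraries overlap for the other 5 genes.

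The other 4 Pol I subunits did not share this pattern. Polr1a, the largest catalytic subunit, was at 76.1, 57.6 and 73.9 CPM in WT hilar and 76.6, 80.02 and 57.1 CPM in WT peripheral cultures. Ndr cultures had 23.1, 69.9 and 65.6 CPM in the hilum and 88.02, 37.2 and 52.7 CPM in the periphery. Mouse 1219 had the lowest library of all in its hilum and the highest in its periphery, and mouse 1220 had the reverse order of regions. As mouse totals, Polr1a was 77.2, 70.3 and 65.7 CPM in the WT mice and 53.5, 49.7 and 58.4 CPM in the Ndr mice, without overlap. Its fitted log2 difference was -0.40 ± 0.125 (SE) with an adjusted p of 0.869 in edgeR. It was -0.17 with derivation date in the fit and -0.22 after correction for transcript length. Without the 3 libraries with high ribosomal protein levels it was -0.04. These held 57.6 (mouse 1223), 23.1 (1219) and 37.2 CPM (1220). Each of these mice then kept only its higher library, of 80.02, 88.02 and 69.9 CPM.

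Polr1c and Polr1d, subunits shared with RNA polymerase III, and Polr1e, a subunit specific to Pol I, had mouse totals that overlapped between genotypes. Their fitted log2 differences were 0.20 ± 0.146 (SE), -0.01 ± 0.215 (SE) and 0.15 ± 0.186 (SE). Polr1d, the Pol I subunit gene with the highest CPM, was at 74.3, 161 and 78.9 CPM in WT hilar, 72.9, 97.2 and 91.8 in WT peripheral, 137, 54.99 and 71.9 in Ndr hilar and 72.8, 137 and 84.8 in Ndr peripheral cultures. Its 3 highest libraries were WT hilum 1223, Ndr hilum 1219 and Ndr periphery 1220, the same 3 in which short transcripts were high.

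All 4 factors that work with Pol I had a fitted difference below 0, with a median of -0.16 on the log2 scale. Tcof1, which encodes treacle, a nucleolar scaffold for Pol I, and Mybbp1a, which encodes a nucleolar MYB-binding protein, were lower in all 3 Ndr mice, with differences of -0.38 ± 0.148 (SE) and -0.30 ± 0.128 (SE). Mybbp1a was at 299, 243 and 345 CPM in WT hilar and 252, 258 and 247 in WT peripheral cultures, against 230.5, 207 and 258 in Ndr hilar and 237, 228 and 208 in Ndr peripheral cultures. The peripheral cultures of the genotypes did not overlap, and the hilar ones did. Rrn3 and Ubtf, the latter a DNA-binding factor of the ribosomal DNA promoter, had differences of -0.01 ± 0.112 (SE) and -0.02 ± 0.139 (SE).

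The 4 abundant nucleolar proteins all had fitted differences below 0, with a median of -0.28. Ncl encodes nucleolin, an RNA-binding protein of the nucleolus. It was at 779, 714 and 1543 CPM in WT hilar and 894, 1000.3 and 833 CPM in WT peripheral cultures. Ndr cultures had 509, 662 and 717 CPM in the hilum and 801, 713 and 706 CPM in the periphery. WT hilum 1225 was far above the rest, and every peripheral Ndr culture was below every peripheral WT culture. The mouse totals differed by -0.51 ± 0.188 (SE), with an adjusted p of 0.877 in edgeR. Ddx21, an RNA helicase of the nucleolus, had totals of 225, 217 and 210.4 CPM in the WT mice and 171, 179 and 165 CPM in the Ndr mice, a difference of -0.34 ± 0.116 (SE). Npm1 (nucleophosmin) and Gnl3 (nucleostemin) had overlapping totals. Ncl, Npm1, Nhp2 and Fbl have near-identical copies elsewhere in the genome, so their counts are uncertain, and so are those of genes that overlap another, since the kit does not mark strand.

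Among the small nucleolar ribonucleoproteins, the box C/D group (Fbl, the methyltransferase fibrillarin, with Nop56, Nop58 and Rrp9) had differences between -0.09 and 0.0015, and no member was lower in all 3 Ndr mice. In the box H/ACA group, which directs pseudouridylation, Nolc1 and Gar1 were lower in all 3 Ndr mice, with differences of -0.31 ± 0.139 (SE) and -0.19 ± 0.142 (SE), and Dkc1, the pseudouridine synthase dyskerin, and Nhp2 were not.

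The 10 small subunit factors had a median difference of -0.11, with 9 below 0. Utp20, Heatr1, Rrp12 and Nop14 were lower in all 3 Ndr mice. Utp20 was at 98.9, 59.9 and 82.02 CPM in WT hilar and 81.9, 112 and 74.8 CPM in WT peripheral cultures. Ndr cultures had 26.8, 82.8 and 56.3 CPM in the hilum and 127, 43.1 and 55.2 CPM in the periphery. As with Polr1a, mouse 1219 held both its lowest and its highest library. The totals were 92.8, 89.4 and 79.2 CPM in the WT mice and 73.99, 58.4 and 55.95 CPM in the Ndr mice, with a fitted difference of -0.47 ± 0.148 (SE) and an adjusted p of 0.869 in edgeR. Without the 3 libraries with high ribosomal protein levels this difference was -0.09, and after correction for transcript length -0.29.

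Of the 9 large subunit factors, Nop2, a methyltransferase of the large subunit RNA, and Rrp1b were lower in all 3 Ndr mice. Rrp1b had totals of 36.5, 35.3 and 44.6 CPM in the WT mice and 27.02, 31.5 and 28.5 CPM in the Ndr mice, a difference of -0.42 ± 0.147 (SE). The 7 others, among them Bop1, Pes1 and Wdr12, which form one complex, overlapped between genotypes.

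The 14 genes lower in all 3 Ndr mice had a median longest transcript of 4522 bases, against 2868 bases in the other 26. The count of genes lower in this sense was 12 after correction for transcript length (5.01% of all genes), and 13 without the 3 libraries with high ribosomal protein levels (3.52%). Without any 1 mouse it lay between 13 and 17, where 7.91% to 14.6% of all genes were lower in this sense.

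**Figure D5:**
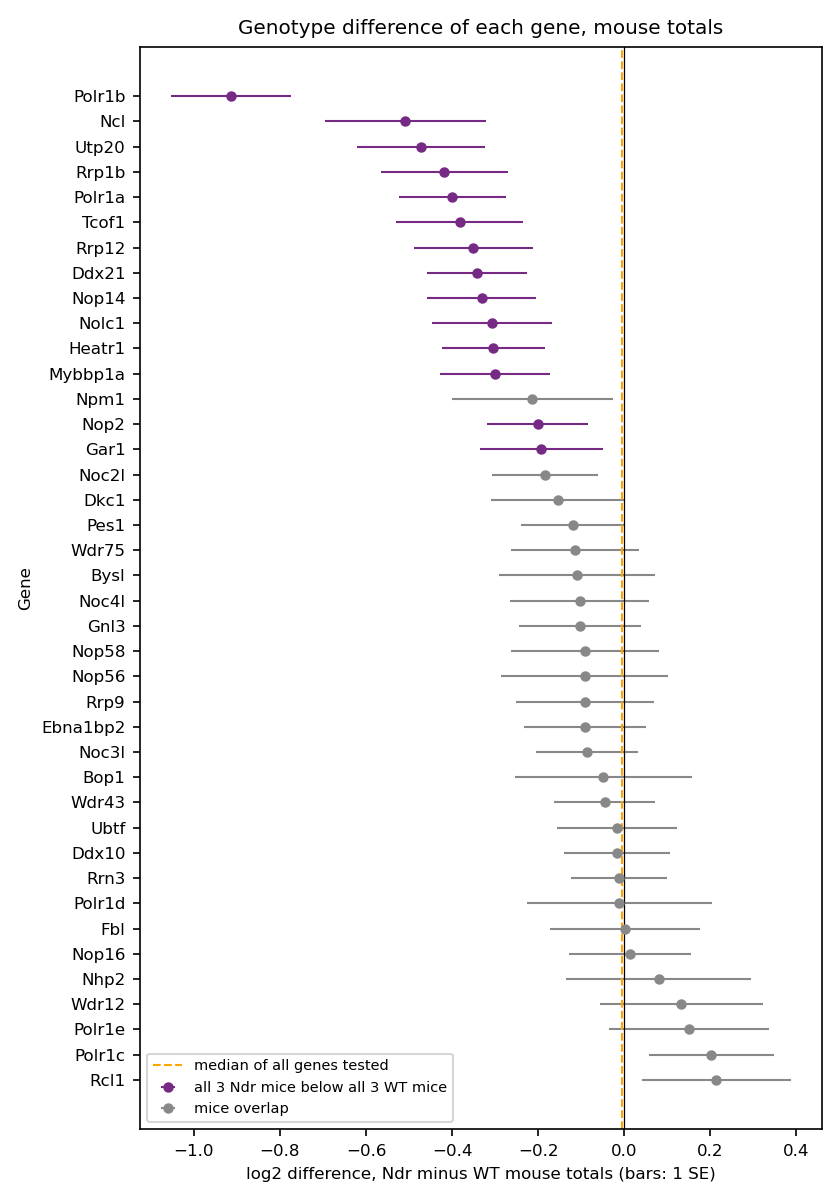
Fitted log2 difference of each gene between Ndr and WT mouse totals (x axis; bars are 1 SE), sorted by size; purple marks the 14 genes with all 3 Ndr mice below all 3 WT mice, and the dashed line is the median of all genes tested. Polr1b lies farthest left at -0.91, and 33 of 40 points lie below 0.

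Other lists were read in the same totals. Of 94 other ribosome biogenesis genes, 58 had a lower fitted level in Ndr mice, with a median of -0.07. Of 77 ribosomal protein genes 19 were lower, with a median of 0.13, of 30 cell cycle genes 26 were lower, with a median of -0.19, of 10 genes of the MYC network 4 were lower, with a median of 0.0061, and of 20 p53 target genes 6 were lower, with a median of 0.06. No member of these lists passed the adjusted threshold in this or any other comparison in edgeR.

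In hilar organoids alone, 35 of the 40 genes had a lower fitted level in Ndr, beside 50.5% of all genes, with a median log2 difference of -0.29 against -0.0046 for all 15014 genes tested. None passed an adjusted p of 0.05 in edgeR (0.00% of all genes), and 3 were lower at an unadjusted p under 0.05, against 3.68% of all genes. At that unadjusted level 982 genes passed in all (6.54%). This total was 1985 without WT hilum 1221, 1041 without WT hilum 1223, 1016 without Ndr hilum 1224, 518 without WT hilum 1225 and 514 without Ndr hilum 1220. The number among the 40 was 8 without WT hilum 1223, 6 without Ndr hilum 1224, 5 without WT hilum 1221, 1 without WT hilum 1225 and 1 without Ndr hilum 1220. Leaving out the 3 libraries with high ribosomal protein levels, it was 9, beside 1165 genes in all, and the median was -0.41. DESeq2 called 44 genes, of which Polr1b was the only one of the 40, and limma-voom called 0. Only Polr1b and Noc2l had all 3 Ndr hilar cultures below all 3 WT ones, 2 of 40 beside 4.18% of all genes. The median was -0.12 without WT hilum 1225, the library with the highest cell cycle level. It was -0.44 with derivation date in the fit, where the genotype difference rests on mice 1224 and 1225. With the recovered counts it was -0.54, and edgeR called 2 of the 40 beside 1514 genes in all. In the same comparison all 30 cell cycle genes were lower, with a median of -1.60, and the mean centred cell cycle level was -0.38, -0.95 and 1.62 in WT and -0.29, -1.33 and -1.14 in Ndr hilar cultures. Its part in the values of the 40 genes was not tested.

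The 3 genes with the smallest p in hilar organoids were Polr1b, Ncl and Nolc1. Polr1b differed by -1.05 ± 0.233 (SE), with an adjusted p of 0.75 in edgeR and of 0.0264 in DESeq2. Ncl differed by -0.69 ± 0.3 (SE) and Nolc1, a chaperone of small nucleolar ribonucleoproteins, by -0.61 ± 0.269 (SE), both with an adjusted p of 0.75 in edgeR. Nolc1 was at 103, 85.6 and 175 CPM in WT hilar and 69.9, 75.5 and 92.9 CPM in Ndr hilar cultures. WT hilum 1225 was the highest and WT hilum 1223 lay within the Ndr range, and without WT hilum 1225 the differences were -0.25 for Ncl and -0.25 for Nolc1. Noc2l, which acts in export of the large subunit precursor, was at 96.4, 94.5 and 124 CPM in WT hilar and 84.05, 68.3 and 90.5 CPM in Ndr hilar cultures.

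By role, the median hilar difference was -0.25 for the Pol I subunits, -0.22 for the Pol I factors, -0.27 for the nucleolar proteins, -0.25 for box C/D, -0.42 for box H/ACA, -0.26 for the small and -0.29 for the large subunit factors. The lower values were thus spread over all 7 roles. The 94 other ribosome biogenesis genes had a median of -0.14 with 68 lower, the ribosomal protein genes 0.02 with 34 of 77 lower, the MYC network -0.02 with 5 of 10 lower and the p53 targets -0.17 with 14 of 20 lower.

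In peripheral organoids the direction of the list as a whole depended on which libraries were used. Of the 40 genes 17 had a lower fitted level in Ndr, beside 45.5% of all genes, with a median log2 difference of 0.07 against 0.03 for all genes. None passed the adjusted threshold in edgeR (0.00% of all genes), and Polr1b alone reached an unadjusted p under 0.05 (1.47% of all genes were lower at that level, and 438 genes, 2.92%, passed in all). DESeq2 called 10 genes and limma-voom 0, none of them among the 40. Polr1b, Rrp1b, Ncl and Mybbp1a had all 3 Ndr cultures below all 3 WT ones, 4 of 40 beside 3.61% of all genes. The median was -0.10, with 29 of the 40 genes lower, when the 3 libraries with high ribosomal protein levels were left out. It was also -0.10 without Ndr periphery 1220, 0.03 without Ndr periphery 1219, 0.04 without WT periphery 1221, 0.02 without WT periphery 1225 and 0.15 without Ndr periphery 1224. With derivation date in the fit, where the genotype difference rests on mice 1224 and 1225, the median was -0.24. With the recovered counts it was -0.22, and these gave calls for 126 genes, none of them among the 40.

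Polr1b differed by -0.69 ± 0.231 (SE) in peripheral organoids, with an adjusted p of 1 in edgeR. The next smallest p belonged to Rcl1, a cyclase-like protein of small subunit processing, and Polr1e. Rcl1 was at 31.4, 33.6 and 29.1 CPM in WT and 34.9, 55.2 and 31.2 CPM in Ndr peripheral cultures, a difference of 0.36 ± 0.301 (SE). Polr1e was at 18.3, 20.2 and 12.3 CPM in WT and 20.1, 29.99 and 14.8 CPM in Ndr peripheral cultures, a difference of 0.35 ± 0.322 (SE). Both were highest in Ndr periphery 1220, their groups overlapped, and without the 3 libraries with high ribosomal protein levels the differences were 0.06 and 0.03. They were 0.05 and 0.02 without Ndr periphery 1220 alone. Of the other lists in peripheral organoids, all 30 cell cycle genes had a higher fitted level in Ndr, with a median of 0.41. The medians were 0.07 for the other ribosome biogenesis genes (62 of 94 higher) and 0.15 for the ribosomal protein genes (59 of 77). They were 0.05 for the MYC network (8 of 10) and 0.29 for the p53 targets (18 of 20).

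Regions were compared next, first in WT organoids. Of the 40 genes, 36 had a higher fitted level in hilar than in peripheral cultures, beside 53.9% of all genes, with a median log2 difference of 0.25 against 0.03 for all genes. None passed the adjusted threshold in edgeR (0.00% of all genes), and 1 passed an unadjusted p under 0.05, as did 76 genes in all (0.506%). DESeq2 and limma-voom called 0 genes. In 9 of the 40 all 3 hilar cultures were above all 3 peripheral ones, beside 2.94% of all genes, and in none were they all below, as in 2.60% of all genes. These 9 were Polr1c, Polr1e, Nop56, Rrp9, Wdr43, Wdr75, Rcl1, Nop2 and Ebna1bp2, and they fall in 4 roles. The count was 14 without WT hilum 1221 (13.6% of all genes) and 17 without WT hilum 1223 (8.29%), where each leaves only 2 hilar cultures.

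The size of the difference depended on the mouse. The mean over the 40 genes, hilum minus periphery, was 0.57 in mouse 1225 with 38 genes higher, 0.15 in mouse 1221 with 31 higher, and -0.12 in mouse 1223 with 16 higher. Without WT hilum 1225 the median was 0.09, and with WT hilum 1223 left out it was 0.35. Without the 3 libraries with high ribosomal protein levels it was 0.36, and 7 of the 40 passed an unadjusted p under 0.05 in edgeR, beside 329 genes in all. Of 30 cell cycle genes, 28 were higher in the hilum in the fit, with a median of 0.37. Their mean centred level was higher in the hilum than in the periphery of mouse 1225 (1.62 against 0.44). It was lower in the hilum of mice 1221 (-0.38 against 0.04) and 1223 (-0.95 against 0.16). The order of the 3 mice was thus the same for both lists.

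Bop1, a large subunit factor that works with Pes1 and Wdr12, had the smallest p. It was at 104, 68.9 and 153 CPM in WT hilar and 71.8, 65.8 and 72.1 CPM in WT peripheral cultures, a difference of 0.64 ± 0.283 (SE) with an unadjusted p of 0.0452 and an adjusted p of 1 in edgeR. Each of the 3 mice had more Bop1 in its hilar culture, by 0.54, 0.07 and 1.08 on the log2 scale for mice 1221, 1223 and 1225. Ebna1bp2, another large subunit factor, was at 64.3, 69.8 and 105 CPM in WT hilar and 55.3, 64.2 and 49.4 CPM in WT peripheral cultures, a difference of 0.50 ± 0.249 (SE). For Nop2 the values were 75.9, 69.8 and 95.3 CPM and 63.3, 63.04 and 62.1 CPM, a difference of 0.36 ± 0.193 (SE). Mouse 1225 had the largest hilar value for all 3 of these genes, and without WT hilum 1225 the differences were 0.31 for Bop1, 0.26 for Ebna1bp2 and 0.22 for Nop2.

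In Ndr organoids 25 of the 40 genes had a lower fitted level in the hilum, beside 51.3% of all genes, with a median of -0.11 against -0.01 for all genes. None of the 40 passed even an unadjusted p under 0.05 in edgeR, a level that 1548 genes reached (10.3%). No gene passed the adjusted threshold (0.00%), DESeq2 called 79 genes, none of them among the 40, and limma-voom called 0. Noc2l was the only one of the 40 with all 3 hilar cultures below all 3 peripheral ones, beside 7.93% of all genes. It was at 84.05, 68.3 and 90.5 CPM in Ndr hilar and 105, 99.02 and 108 CPM in Ndr peripheral cultures, a difference of -0.36 ± 0.177 (SE) with an adjusted p of 0.52 in edgeR. In WT peripheral cultures it was at 113, 101 and 100.3 CPM, so that the Ndr hilar cultures were below every other library. The region difference was -0.23 without Ndr hilum 1220.

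Noc3l, a partner of Noc2l, and Rrn3 came next by p. Noc3l was at 40.5, 48.2 and 42 CPM in Ndr hilar, 42.9, 35.8 and 33.4 in Ndr peripheral, 46.6, 34.8 and 42.1 in WT hilar and 38.7, 42.8 and 41.7 in WT peripheral cultures. Rrn3 was at 76.3, 81.8 and 75.8 CPM in Ndr hilar, 86.5, 80.1 and 98.4 in Ndr peripheral, 81.5, 79.6 and 86.4 in WT hilar and 80.9, 81.9 and 85.6 in WT peripheral cultures. Their region differences in Ndr were 0.22 ± 0.18 (SE) and -0.18 ± 0.15 (SE), and the groups overlapped. By mouse, the mean over the 40 genes, hilum minus periphery, was 0.19 in mouse 1224, -0.35 in mouse 1220 and -0.02 in mouse 1219. The median was 0.05 without Ndr hilum 1220 and 0.05 without Ndr periphery 1220, and it was 0.03 without the 3 libraries with high ribosomal protein levels, one of which is Ndr periphery 1220. It was -0.17 without Ndr periphery 1224 and -0.03 without Ndr periphery 1219. All 30 cell cycle genes were lower in the hilum of Ndr organoids, with a median of -1.58. The summed mesothelial markers were lower in every Ndr hilar than in every Ndr peripheral culture, and the part of either list in the values of the 40 genes was not tested.

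Over both genotypes, 28 of the 40 genes had a higher fitted level in the hilum, beside 52.2% of all genes, with a median of 0.09 against 0.02 for all genes. The median was 0.02 without WT hilum 1225 and 0.02 without Ndr periphery 1224, and 0.15 without Ndr periphery 1220. It was 0.19 without the 3 libraries with high ribosomal protein levels. None passed an unadjusted p under 0.05 in edgeR, as 911 genes did (6.07%), and no gene passed the adjusted threshold (0.00%). Without Ndr periphery 1220 the number among the 40 was 8, and without the 3 libraries it was 5. The share of all genes in those reduced fits is not given here, so a gain for the list cannot be read from them. DESeq2 called 2 genes, neither of them among the 40, and limma-voom 0. No gene of the list was higher in the hilum of all 6 mice or lower in all 6, beside 1.12% and 1.37% of all genes. Wdr75, a factor of early small subunit assembly, was at 68.5, 74.6 and 89.7 CPM in WT hilar, 56.8, 64.9 and 61.2 in WT peripheral, 84.3, 62.96 and 62.2 in Ndr hilar and 59.4, 74.98 and 46.6 in Ndr peripheral cultures. It was higher in the hilum of 5 of 6 mice, the exception being mouse 1220, with a difference of 0.28 ± 0.152 (SE) and an adjusted p of 0.849 in edgeR.

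Bop1 came second, with 96.6, 85.3 and 84.6 CPM in Ndr hilar and 75.5, 116 and 67.7 CPM in Ndr peripheral cultures and a difference over both genotypes of 0.34 ± 0.2 (SE). Without the 3 libraries with high ribosomal protein levels it was 0.58. Nop58, a core protein of box C/D ribonucleoproteins, came next, at 161, 142 and 244 CPM in WT hilar, 124, 158 and 122 in WT peripheral, 188, 159 and 143 in Ndr hilar and 129, 189 and 103 in Ndr peripheral cultures. Its difference was 0.33 ± 0.194 (SE), and it was 0.50 without those libraries. Without WT hilum 1225 the differences were 0.19 for Bop1 and 0.20 for Nop58.

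The interaction tests whether the genotype difference in the hilum differs from that in the periphery. It was below 0 for 37 of the 40 genes, beside 53.9% of all genes, with a median of -0.28 against -0.05 for all genes. No gene of the list passed an unadjusted p under 0.05 in edgeR, as 288 genes did below 0 (1.92%) and 163 above 0 (1.09%), and no gene at all passed the adjusted threshold (0.00%). DESeq2 called 4 genes, none among the 40, and limma-voom 0. The median was -0.12 without WT hilum 1225, -0.17 without Ndr periphery 1220 and -0.42 without WT hilum 1223. No gene of the list was higher in one region of all 3 WT mice and in the other region of all 3 Ndr mice, as 1.32% of all genes were. For the 30 cell cycle genes the interaction was below 0 in 30, with a median of -2.02.

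Ebna1bp2, Nolc1 and Gar1 had the smallest p. Their interactions were -0.63 ± 0.352 (SE), -0.63 ± 0.38 (SE) and -0.57 ± 0.358 (SE), each with an adjusted p of 0.994 in edgeR. Gar1, a core protein of box H/ACA ribonucleoproteins, was at 27.5, 29.4 and 47.1 CPM in WT hilar, 28.1, 30.3 and 25.8 in WT peripheral, 23.02, 21.6 and 31.02 in Ndr hilar and 34.4, 32.3 and 23.97 in Ndr peripheral cultures. Nolc1 was at 99.8, 106 and 83.1 CPM in WT peripheral and 105, 111 and 78.1 CPM in Ndr peripheral cultures, and Ebna1bp2 at 73.3, 55.8 and 53.6 CPM in Ndr hilar and 55.7, 84.8 and 58.6 CPM in Ndr peripheral cultures. For all 3 genes WT hilum 1225 was the highest library of the 12, and without it the interactions were -0.36 for Ebna1bp2, -0.25 for Nolc1 and -0.26 for Gar1. Wdr43, the small subunit factor with the highest CPM, was at 103, 112 and 139.7 CPM in WT hilar, 94.7, 99.5 and 86.5 in WT peripheral, 125, 87.3 and 103 in Ndr hilar and 89.6, 127 and 86.9 in Ndr peripheral cultures.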

How the data were processed

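The deposited raw counts cover 12 libraries and were made by the authors with featureCounts; the submitters' processing notes name GRCm39 as the build. The sources used here name no aligner, annotation release or strand setting. A deposited table of normalized signal goes with DESeq2 1.34.0, which the submitters' processing notes list. Its values came out as whole counts times 1 step per library in 100% of cases, within a tolerance of 0.01; for the peripheral library of WT mouse 1225 the step was so near 1 that it could not be told from rounding. These recovered counts equalled the raw count in 43.1% of cases, and no source used here records the step between them, so they served only as an alternative.

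Main results start from the raw counts. The tool was edgeR 4.0.16 in R 4.3.3, with filterByExpr, TMM and the robust quasi-likelihood F test, in 1 fit over 12 libraries with 1 coefficient per group (15014 genes tested) and in 1 fit of 6 mouse totals (15401 genes). Adjusted p-values are Benjamini-Hochberg over all genes tested, with a threshold of 0.05. Log2 CPM used a prior count of 2. Standard errors were computed back from the log2 difference and its F statistic. Both fits were tested on simulated counts. For genotype in the hilum, 8 of 99 genes with a true log2 difference of 1 in size were called, and 48 of 97 with one of 2. In totals these were 18 of 98 and 67 of 98. False calls numbered 1 in the hilum and 12 in totals, in totals a larger share of the calls than the threshold of 0.05 allows. The simulated counts were drawn independently, without a length pattern or a link between the libraries of a mouse, so they do not match these data in those respects.

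The 40 genes and the other lists (other ribosome biogenesis genes, ribosomal proteins, MYC network, cell cycle, p53 targets and markers of 6 cell types) were chosen with earlier results of these data known. Named genes are, per comparison, those past the threshold or else the 3 with the smallest p at a mean of at least 5 CPM, and the most and least variable gene and that of highest CPM in each role; genes outside this rule are named for their place in a count, a choice made with their values in view. Names and transcript lengths came from GENCODE M21 (GRCm38). Polr1f, Polr1g and Polr1h were not matched there. The hilar and peripheral libraries of a number come from the same mouse, so the numbers pair the libraries. Over all genes, deviations of a pair from their group means correlated at -0.34 to 0.45. Over the 40 genes the correlation was -0.88 in mouse 1219 and -0.79 in mouse 1220, and between -0.09 and 0.34 in the remaining mice. In the fit of 12 libraries, p-values rest on 1 estimate of spread per gene, shared by the 4 groups of 3 cultures, each of its own mouse. That fit treats the hilar and peripheral libraries of a mouse as independent. In the fit of totals, p-values rest on the spread between the mice of a genotype. Alternatives were RLE scaling, no low-count filter, DESeq2 1.42.0, limma-voom (limma 3.58.1), recovered counts, derivation date, the mouse as a block and each replicate left out. The correction for transcript length (a loess curve per library) and the fits without 3 libraries were added after seeing the data.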

Additional observations from a re-analysis of the deposited data

How the results depend on the processing

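With 3 cultures a group and 6708822 to 16030880 counts a library, absence of calls does not show absence of differences. With DESeq2, calls rose to 44 genes (1 of the 40) in hilar and 10 in peripheral organoids by genotype, 124 (1 of the 40) in mouse totals, 79 by region in Ndr, 2 by region over both genotypes and 4 in the interaction; limma-voom and RLE scaling gave none. With the recovered counts, genotype calls were 1514 genes (2 of the 40, median -0.54) in hilar organoids, 126 (median -0.22) in peripheral ones and 6753 (28 of the 40, median -0.37) in totals, with 34 of the 40 lower in all 3 Ndr mice beside 29.8% of all genes; region calls were 5 in WT and 30 in Ndr. Derivation date in the fit, where the genotype difference rests on mice 1224 and 1225, gave medians of -0.24 in peripheral organoids and -0.37 in totals. No low-count filter gave 5 genes in totals. The cause of these shifts was not tested. Without the 3 libraries with high ribosomal protein levels, the median of totals was -0.23. In 17 of the 40 genes all remaining WT hilar cultures were then above all WT peripheral ones (8.04% of all genes).

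The replicate block on the mouse called 0 genes, with medians of 0.21 for region in WT, -0.11 in Ndr, 0.07 over both genotypes and -0.23 for the interaction, and it changed no call. Leaving out 1 library or mouse at a time gave 0 to 4 genes called in totals (4 without mouse 1219), 0 to 2 for genotype in peripheral and 0 to 7 for region in Ndr organoids (both without Ndr periphery 1219). In 8 to 17 of the 40 genes all remaining WT hilar cultures were above all WT peripheral ones, as in 4.43% to 13.6% of all genes. The difference of Polr1b stayed below 0 in all 14 alternatives of each genotype comparison.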
